A study of Oncorhynchus mykiss with 18 samples.

Results

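Of the 4884 rows of the small RNA count table of rainbow trout, 4672 are predicted precursors named by their genomic location, and 372 of these were counted in epidermal mucus and in none of the 6 plasma libraries. A row was taken when its counts summed to 0 over the 6 plasma libraries and to more than 0 over the 6 mucus libraries. The other 69 predicted rows with mucus counts also had plasma counts, so that 84.4% of the 441 predicted rows found in mucus had none. The smallest mucus sum among the 372 rows was 3 counts, shared by 12 rows, and the smallest plasma sum among the 69 rows left outside was 11 counts. Since the rows were chosen by their mucus and plasma counts, their levels in mucus and their absence from plasma are given as a description, without a test.

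Epidermal mucus, blood plasma and tank water were taken from stressed fish or their tanks, 1 h after 3 min in air, and before the air exposure (control), with 3 libraries of each kind. Each mucus library came from another fish, and stressed and control fish of a replicate were different animals from a tank of 4 fish in 200 L, all killed in buffered MS-222. Mucus was scraped by hand from the skin, so it can hold shed cells and skin microbes as well as secreted RNA. For water, both samples of a number were drawn from 1 tank. Per the paper, RNA was extracted with a different kit for each sample type, and plasma RNA was also cleaned up and concentrated. Sample type and kit therefore cannot be told apart.

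A microRNA (miRNA) is cut from a hairpin precursor by Drosha in the nucleus and Dicer in the cytoplasm, and the mature strand guides Argonaute to messenger RNAs. Software such as miRDeep2 predicts new precursors from reads that pile up on a stretch of genome able to fold into a hairpin, in the pattern Dicer would leave. Fragments of transfer RNA, ribosomal RNA and repeats can form such piles too, so a predicted locus is a candidate and not a known miRNA. In fish skin, the well-known miRNAs of epithelium are miR-200, miR-203 and miR-205. The list of skin and epithelial miRNAs used here also holds miR-182, miR-183, miR-96 and miR-429. All its 18 rows were counted in mucus. They made up 262009 to 341131 per 1000000 known miRNA counts in stressed mucus and 131887 to 333549 in control mucus. The red blood cell list (6 of 9 rows counted) held 318 to 1977 per 1000000 in stressed mucus and 757 to 8898 in control mucus, and all 10 muscle rows were at 0. White blood cell rows (3 of 4 counted) held 16.8 to 114 per 1000000 in stressed mucus and 77.3 to 900 in control mucus. The liver miRNA, miR-122, held 0 to 3.76 in stressed mucus and 3.47 to 668 in control mucus.

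A 0 in the table needs care. The authors ran the prediction on each library by itself, so a 0 means that a location with exactly those ends was not predicted in that library, and reads may still lie there. Of the 372 rows, 61 overlapped, on their own strand, another predicted row that was counted in plasma, and 1 more did so on the other strand. In all 61 cases the row and its overlapping plasma row were never counted in the same library. For the plasma libraries the rule fixed this, since the 372 rows are at 0 there. In mucus it was fixed too unless the plasma row was also counted there, as it was in 30 of the 61 cases. Rows can also share reads: 222 of the 372 had counts identical to those of another of them in all 18 libraries, and 64 overlapped another of them.

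Rows that overlapped on a strand by at least 1 base or had identical counts were therefore joined, which gave 198 merged loci at 339 separate places. The highest count of the joined rows was taken as the count of a merged locus, and loci are numbered below by their mean share of the counts of the 6 mucus libraries. Joining rests mostly on identical counts, as overlap alone left 339 loci. The locus with the most places, locus 153, shows why this number is soft: it joins 11 rows at 11 places, each with 11 counts in control replicate 2 and 0 in all other libraries. A count as low as 11 can be equal in unrelated rows, and sequence was not used to tell them apart.

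The loci lay on 29 chromosomes and on unplaced scaffolds of the Omyk_1.0 genome, whose coordinates are given as in the table. Of the 372 rows, 331 lay on chromosomes and 41 on unplaced scaffolds. Rows were 37 to 106 bases long (median 64 bases, against 62 bases for the 69 rows with plasma counts). Of the 339 places, 47 lay within 10000 bases of another.

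These rows took up most of the counts of some mucus libraries and little of others. They made up 96.2, 86.9 and 5.06% of all counts in stressed replicates 1, 2 and 3 and 50.3, 13.5 and 77.6% in control replicates 1, 2 and 3. The means were 62.7% ± 50.2 in stressed mucus and 47.1% ± 32.2 in control mucus (SD, n = 3 each), and the stressed values lay on both sides of all control values. Total counts ranged between 1751108 and 23634159 in stressed mucus and between 1962483 and 2638571 in control mucus, so the highest share and the highest total fell in the same library, stressed replicate 1. The paper states that miRDeep2 counts reads from several precursors more than once, and that its pipeline averages a mature miRNA over its precursors. Predicted rows are named by place, and rows at different places had identical counts, so a read may still be counted more than once. In stressed replicate 1 the total exceeded the number of trimmed reads in the paper's quality report, so some reads of that library were counted more than once. Which rows hold them was not tested.

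**Figure D1:**
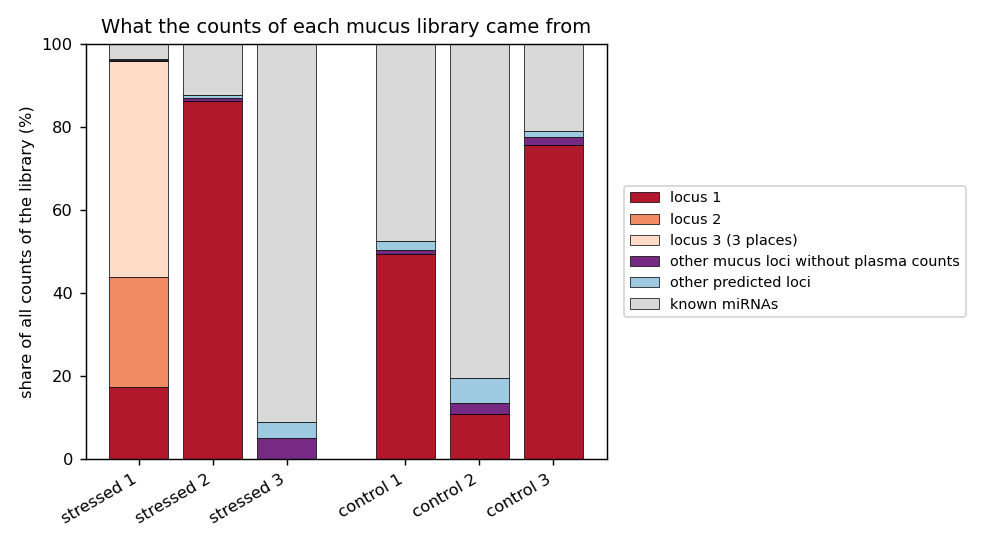
Share of all counts (%, y axis) in each of the 6 mucus libraries (stressed replicates 1 to 3, then control replicates 1 to 3), stacked by source. Locus 1 fills 86.3% of stressed replicate 2 and is absent from stressed replicate 3, while loci 2 and 3 appear in stressed replicate 1 alone.

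Only 6 of the 372 rows, the rows of loci 1, 2 and 3, reached 1000000 counts over the mucus libraries, and together they held 98.9% of all mucus counts of the 372. Without these 6 rows the remaining rows made up 5.82% ± 1.92 of the remaining counts in stressed mucus and 4.19% ± 3.03 in control mucus (SD, n = 3 each). The groups overlapped. At the other end, 280 rows had under 100 counts over all mucus libraries, and the median of the 456 counts above 0 was 26.

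Locus 1 lies on NC_035079.1 from 37902755 to 37902832 (plus strand, 78 bases). It had 4102145, 2931387 and 0 counts in stressed replicates 1, 2 and 3, against 968345, 232555 and 1997836 counts in control replicates 1, 2 and 3. It was thus counted at 232555 or more in 5 of 6 fish and not predicted in the sixth, and it was at 0 in all water and plasma libraries. As a share of all counts this came to 17.4, 86.3 and 0% in stressed mucus and 49.3, 10.8 and 75.7% in control mucus. In stressed replicate 2 the locus was listed under a row of its own that starts 3 bases later, at 37902758. The row with the earlier start was therefore at 0 in that library. The edgeR quasi-likelihood test gave this row a log2 fold change of 0.50 (SE 5.74, adjusted p = 0.994), and the joined locus had a log2 fold change of 1.21, and neither was called.

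Loci 2 and 3 were counted in 1 fish. Locus 2 is 77 bases long, on NC_035087.1 from 34687262 to 34687338 (minus strand). Its 6246713 counts in stressed replicate 1 were the highest count of the 372 rows in mucus, and it was at 0 in the 17 other libraries. Locus 3 has 3 places, on NC_035084.1 from 79439593 to 79439668 (plus strand), on NC_035091.1 from 38287600 to 38287674 (minus strand) and on scaffold NW_018580030.1 from 50263 to 50337 (minus strand). All 3 had 4102145 counts in stressed replicate 1, the same number as locus 1 in that library, and 0 elsewhere. Whether loci 1 and 3 hold the same reads was not tested. With the merged loci counted once each, the share of the counts of stressed replicate 1 was 94.9%, against 96.2% over rows. Loci 1 and 3 are both in that 94.9%.

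Loci 4 to 10 were smaller, with a mean share of 0.287% for locus 4 against 2.89% for locus 3, and differed from fish to fish. Locus 4 (NC_035091.1, 41087901 to 41088000, plus strand) had 30139 counts in stressed replicate 3 alone. Locus 9, with 2 places of which the first is on NC_035092.1 (24641978 to 24642021, minus strand), had 11430 counts in that same library alone. Locus 8 (NC_035080.1, 68127701 to 68127760, minus strand) had 8479 and 12447 counts in control replicates 1 and 3 and 0 in all stressed mucus. No 2 of these 3 were counted in the same library except loci 4 and 9. Locus 6 (NC_035091.1, 38272154 to 38272197, plus strand) had 20857 counts in stressed replicate 1 and 16028 and 14440 counts in control replicates 2 and 3.

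Locus 7 (NC_035085.1, 61423757 to 61423832, minus strand) had 25851, 0 and 20252 counts in stressed replicates 1, 2 and 3, against 0 in all 3 control libraries. Locus 10 (NC_035105.1, 1461627 to 1461701, minus strand) had 5650, 2708 and 6406 counts in stressed replicates, against 1567, 0 and 0 counts in control replicates. Both were absent from water and plasma. Of the 10 largest loci, locus 10 was the only one counted in all 3 stressed fish.

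**Figure D2:**
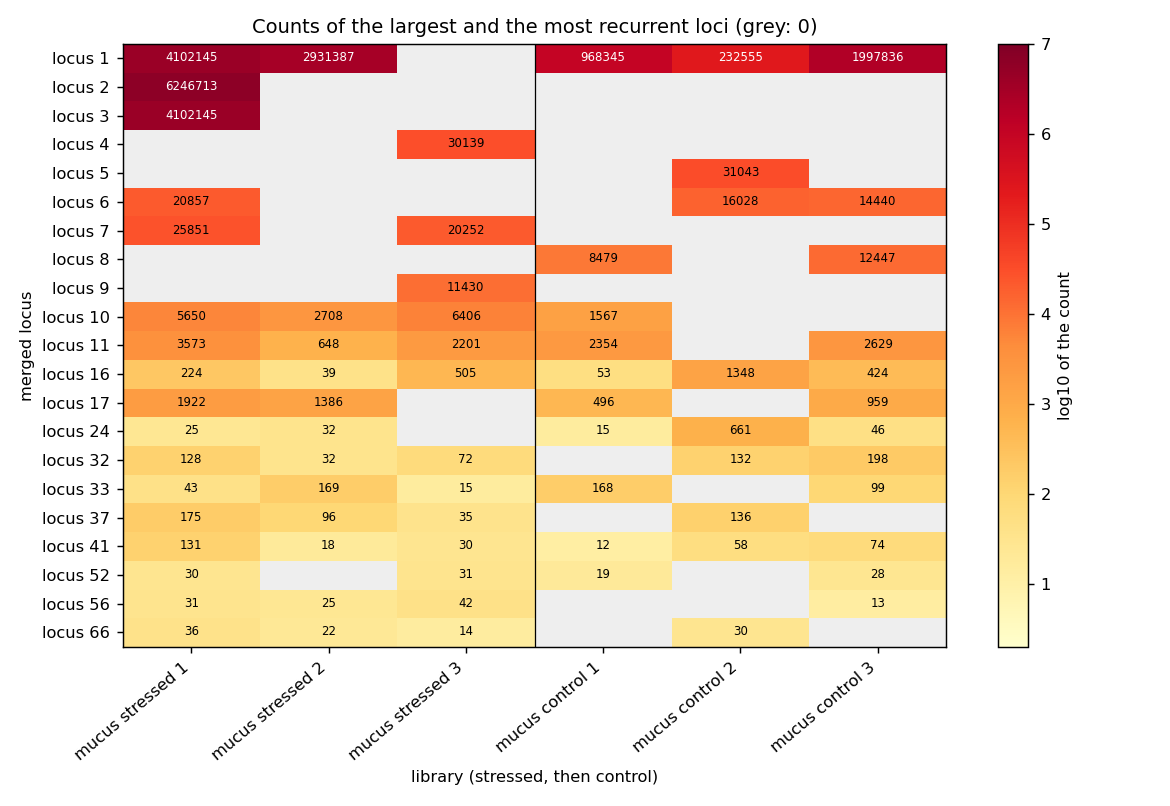
Counts in the 6 mucus libraries (columns, stressed then control) of the 10 largest merged loci and of those counted in at least 4 libraries (rows), coloured on a log10 scale with 0 in grey. Loci 16 and 41 are the 2 filled in all 6 columns, at 12 to 1348 counts, while loci 2 to 5 and locus 9 are filled in 1 column each.

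Most of the rows were seen in 1 fish. A count was present in 1 of the 6 mucus libraries for 325 of 372 rows (87.4%), in 2 for 27, in 3 for 9, in 4 for 6, in 5 for 4 and in all 6 for 1 row. Of the 69 rows with plasma counts, 28 (40.6%) were counted in 1 mucus library. Those 69 were set apart by their plasma counts and had higher mucus counts where present (median 108 against 26), so the sets are not alike. Merged loci of the 372 recurred somewhat more than the rows: 148 of 198 (74.7%) were counted in 1 library, 50 in 2 or more and 13 in 4 or more. When each row was joined with every predicted row that overlapped it on its strand, 275 of the 372 rows (73.9%) lay at a place counted in 1 mucus library and 18 at a place counted in all 6.

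The libraries differed in how many of the rows they held. Stressed replicates 1, 2 and 3 had 86, 46 and 61 of the rows, against 50, 154 and 59 in control replicates 1, 2 and 3. Control replicate 2 thus stood apart, and 140 of its 154 rows were counted in no other mucus library. By treatment, 126 rows were counted in stressed mucus only, 215 in control mucus only and 31 in both. Of the 215, 140 were those of control replicate 2 alone, and the same split over all 596 rows with mucus counts was not made. Without control replicate 2, 232 rows were left, 83.2% of them in 1 library, and without stressed replicate 1, 321 rows were left, 91.0% in 1 library.

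**Figure D3:**
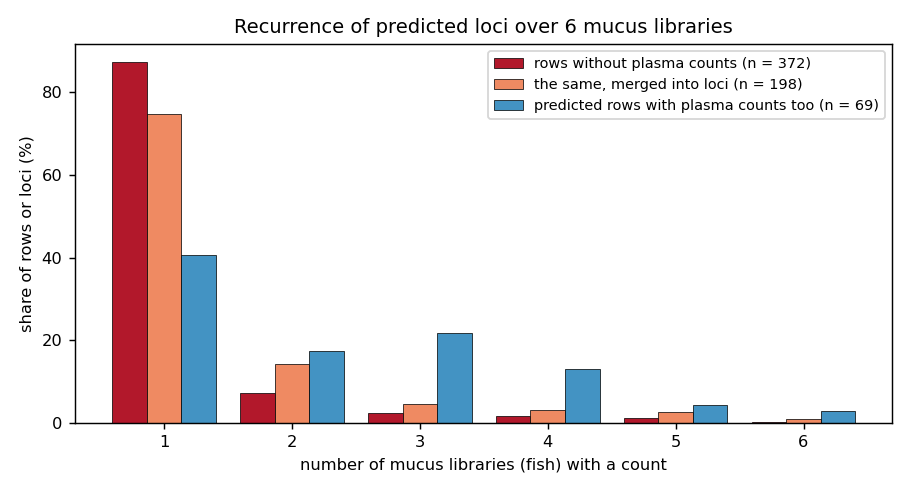
Share (%, y axis) of the 372 rows without plasma counts, of the 198 merged loci they form and of the 69 predicted rows also counted in plasma that had a count in 1 to 6 mucus libraries (x axis). The 1-library bar holds 87.4, 74.7 and 40.6% of the 3 sets.

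Apart from loci 1, 10, 11 and 17, the loci that recurred in 4 or more fish mostly had low counts. Locus 16 (NC_035087.1, 193139 to 193205, plus strand) had 224, 39 and 505 counts in stressed replicates and 53, 1348 and 424 counts in control replicates. Locus 41 (NC_035079.1, 64183629 to 64183707, minus strand) had 131, 18 and 30 counts in stressed replicates and 12, 58 and 74 counts in control replicates. These 2 were the only loci counted in all 6 fish, and their stressed and control counts overlapped. Locus 16 is made of 3 rows whose ends differ by 1 base, and locus 41 is a single row, the only one of the 372 counted in all 6 libraries.

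Locus 11 (NC_035085.1, 53036781 to 53036846, plus strand) was counted in 5 fish, at 3573, 648 and 2201 in stressed replicates and 2354, 0 and 2629 in control replicates. A row 1 base shorter at each end had 276 counts in plasma of control replicate 1, so this place was not free of plasma counts. Locus 17 (NC_035083.1, 64706997 to 64707072, minus strand) had 1922, 1386 and 0 counts in stressed replicates and 496, 0 and 959 counts in control replicates. Loci 24, 32 and 33 were counted in 5 fish and loci 37, 52, 56 and 66 in 4, at 13 to 661 counts where present. Among these 7, locus 56 (NC_035078.1, 65501794 to 65501853, plus strand) was the only one whose stressed counts (31, 25 and 42) all exceeded its control counts (0, 0 and 13). As shares of all counts its groups overlapped, since stressed replicate 1 (0.000131%) was below control replicate 3 (0.000493%).

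Loci 52 and 55, kept apart by the joining rule, had nearly the same counts. Locus 52 (NC_035084.1, 52944093 to 52944158, plus strand) had 30, 0 and 31 counts in stressed replicates and 19, 0 and 28 counts in control replicates. Locus 55 (NC_035104.1, 26519160 to 26519226, minus strand) had 0, 0 and 31 counts in stressed replicates and 19, 0 and 28 counts in control replicates. The counts were equal in every library but stressed replicate 1, and in water both had 24 counts in stressed replicate 1 alone.

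Several rows were absent from plasma by row and counted there by place. The row of locus 5 (NC_035083.1, 58293890 to 58293943, plus strand) had 31043 counts in control replicate 2 and 0 in the 17 other libraries. The row that starts 1 base earlier, at 58293889, was counted in all of those 17 and not in control replicate 2. It had 5148, 2947 and 11679 counts in stressed mucus, 4340 and 3299 counts in mucus of control replicates 1 and 3, 1013, 480 and 1175 counts in stressed plasma and 1369, 745 and 3884 counts in control plasma. Read as a place, locus 5 was present in all 3 sample types and in every library.

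Locus 15 (NC_035093.1, 39200163 to 39200218, minus strand) gave a similar picture, with 2981 counts in mucus of control replicate 3 alone. A row that ends 1 base earlier had 4484, 2505 and 10711 counts in stressed mucus and 4006, 0 and 0 counts in control mucus. It was counted in 2 stressed and 2 control plasma libraries. By place, locus 15 was still at 0 in mucus of control replicate 2 and in plasma of stressed replicate 3 and control replicate 3. Locus 18 is 10 rows at 5 places, the first on NC_035090.1 from 36248442 to 36248502 (plus strand), with 1673, 0 and 921 counts in stressed mucus and 0 in control mucus. Its overlapping row from 36248434 to 36248502 had 0, 1209 and 0 counts in stressed mucus, 695, 108 and 1340 counts in control mucus and 15 counts in plasma of control replicate 3. Taken by row, locus 18 was found in stressed mucus alone, and taken by place it was counted in all 6 mucus libraries.

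Overlaps of this kind were a minority. For the 61 rows that overlapped a plasma row on their strand, the plasma row was also counted in mucus in 30 cases. The other 311 rows overlapped no plasma row on their own strand. By locus, 162 of the merged loci had no such overlap, loci 1, 2 and 3 among them.

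**Figure D4:**
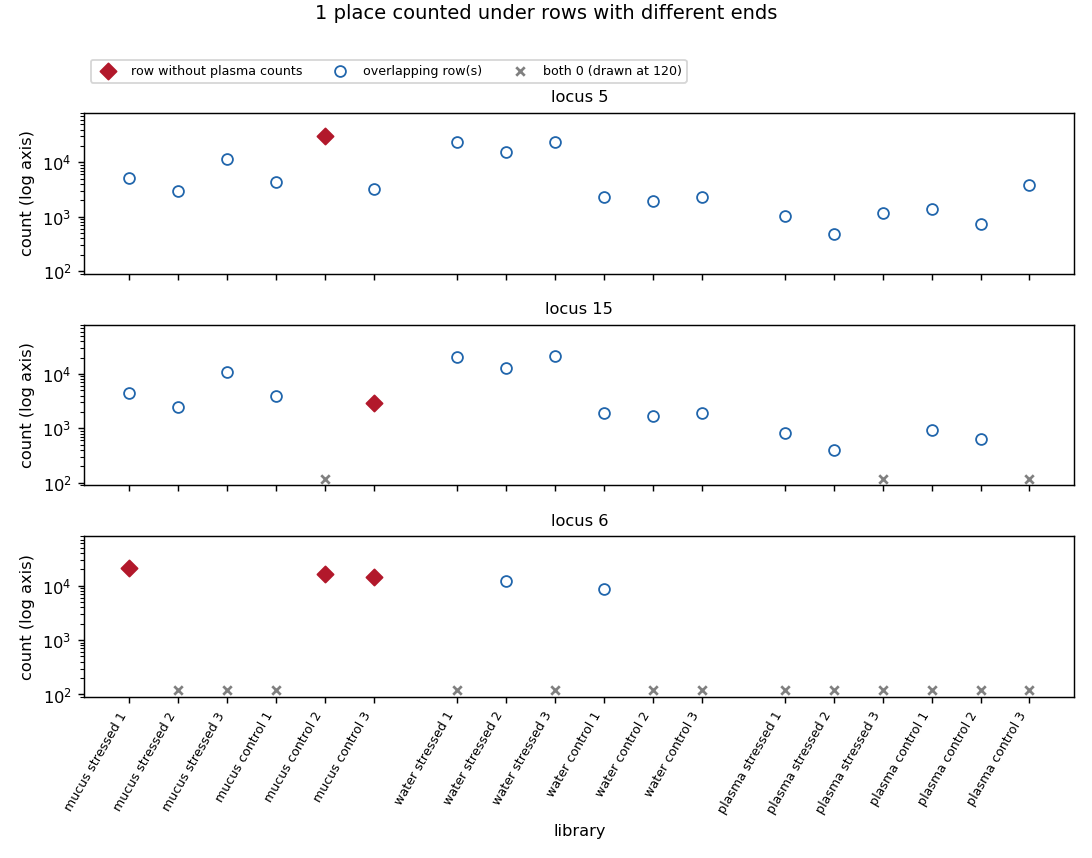
Counts (log axis) in all 18 libraries of the rows of loci 5, 15 and 6 (filled diamonds) and of the rows that overlap them with other ends (open circles), with libraries where both are at 0 marked by a cross. For locus 5 the 2 kinds of row fill all 18 libraries and never the same one, and for locus 6 the overlapping row was counted in 2 water libraries.

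Tank water held few of these rows. Of the 372, 23 (6.18%) were counted in any of the 6 water libraries, against 46 of the 69 rows with plasma counts (66.7%), and 22 of the 23 had at least 10 counts in a water library. The 69 rows were set apart by their plasma counts and had higher mucus counts where present (median 108 against 26), so the sets are not alike. Those 23 rows form 21 merged loci. A further group overlapped a row that was counted in water, so that 60 of the 372 were either counted in water or overlapped such a row. The rows made up 0.00776, 0.153 and 0.135% of all counts in stressed water and 1.41, 1.74 and 1.09% in control water. The 3 stressed values were below the 3 control values. All predicted rows together also held a smaller share of the total in each stressed than in each control water library. Of the counts of predicted rows, the 372 made up 0.0858, 1.35 and 1.18% in stressed and 9.41, 4.59 and 3.74% in control water. With each merged locus counted once, the shares were 0.00844, 0.177 and 0.155% in stressed water and 0.807, 0.963 and 1.21% in control water. Stressed water libraries had totals of 3451473 to 5414071 counts and control water libraries totals of 445067 to 695998, so depth moved with treatment and its part in the counts of rows found was not tested.

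Locus 22 carried most of this. It lies on NC_035087.1 from 193413 to 193514 (plus strand) and had 0, 5071 and 7206 counts in stressed water and 4865, 5638 and 4281 counts in control water. In mucus it had 1158, 0 and 0 counts in stressed replicates and 0, 0 and 880 counts in control replicates. It was counted in more water than mucus libraries, and under its own rows no other locus passed 304 counts in a water library. Read by place this does not hold. Rows with other ends that overlap loci 5, 15 and 6 had up to 23626, 21020 and 12014 counts in a water library. The 2 rows of locus 22 overlap. The row from 193413 to 193472 was counted in 5 water libraries and the row from 193452 to 193514 in control replicates 1 and 2 alone, with the same counts.

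Locus 22 has close neighbours. Locus 16 ends 207 bases before it, and locus 20 (191176 to 191272, 1357 counts in mucus of control replicate 3 alone) lies a further 1866 bases before that, all on the plus strand within 2339 bases. Locus 16 was at 0 in all water libraries. Loci 26 and 27 also lie close together, 884 bases apart on NC_035084.1 on the plus strand from 29520965 to 29521017 and from 29521902 to 29521954. Both were counted in mucus of control replicate 1 (522 counts for locus 26) and in water of control replicate 3, where they had 304 and 265 counts, and both overlapped rows counted in plasma. The longer rows at these 2 places were counted in all 3 stressed water libraries, at 290 to 1084, and in water of control replicate 1, at 333 and 303.

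The rest of the loci found in water had low counts there. Locus 33 (NC_035096.1, 30306965 to 30307007, plus strand) had 167, 73 and 0 counts in stressed water and 0 in control water, beside 43, 169 and 15 counts in stressed mucus and 168, 0 and 99 counts in control mucus. Locus 42 (NC_035081.1, 25546957 to 25547019, minus strand) had 48 counts in water of control replicate 1 alone, but an overlapping row from 25546959 to 25547017 had 559, 344 and 852 counts in stressed water and was counted in all 6 plasma libraries. Locus 24 (NC_035083.1, 33386985 to 33387059, minus strand) had 27, 22 and 18 counts in stressed water, and locus 60 (NC_035094.1, 16213608 to 16213679, plus strand) 17, 21 and 23 counts. Both were at 0 in all control water. In mucus, however, locus 24 had 25, 32 and 0 counts in stressed replicates and 15, 661 and 46 counts in control replicates, and locus 60 was counted in control replicates 2 and 3 alone, at 68 and 11.

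Loci 24 and 60 were the 2 of the 23 rows counted in every stressed and no control water library, and over all 548 rows with water counts 4.38% showed that pattern. Depth limits this pattern, since the 27 counts of locus 24 in 5090770 are a smaller share than 3 counts, the smallest count of a predicted row in control replicate 3, in 445067. By treatment, 14 of the 23 rows were counted in stressed water only, 5 in control water only and 4 in both. The same split over all 548 rows was not made.

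**Figure D5:**
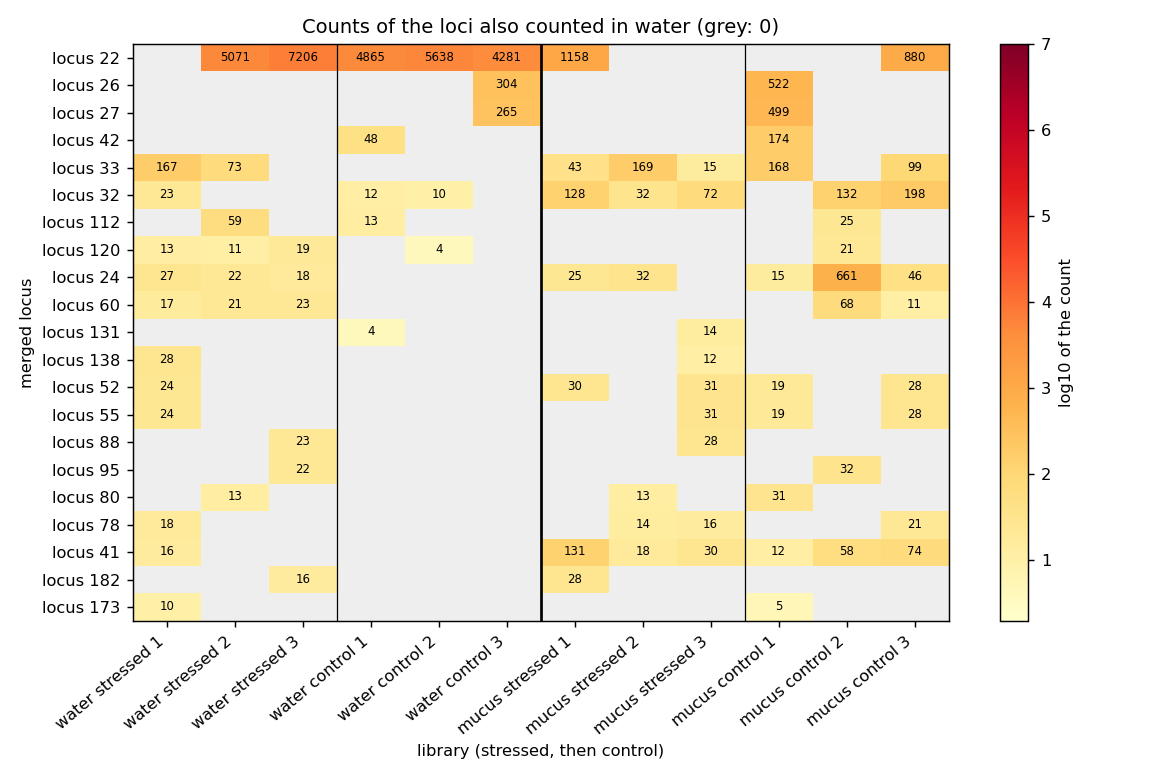
Counts of the 21 merged loci found in water (rows, ordered by mean share of the water libraries' counts) in 6 water and 6 mucus libraries (columns, stressed then control within each), coloured on a log10 scale with 0 in grey. Locus 22 has 4281 to 7206 counts in 5 water libraries, and all other loci drawn are, under their own rows, at or below 304 counts in water.

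The treatment comparison asked whether any of these rows differed between mucus of stressed and control fish. Across all 596 rows with mucus counts, 149 passed the filter on low counts, and only 18 of the 372 rows were among them, since most were present in 1 library. None of the 18 passed the threshold (FDR below 0.1 with p at most 0.05, and a log2 fold change beyond 2 in either direction) by the edgeR quasi-likelihood test, where 0.671% of all rows tested passed. The lowest adjusted p of the 18 was 0.329. At an unadjusted p under 0.05 by the same test there were 2 of the 18, against 4 of all 149 rows tested (2.68%). These 2 passed the filter through the stressed group alone, where they had all their counts, so their p-values are conditioned on it.

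Those 2 were low-count rows of the stressed fish. Locus 79 (row from 278 to 338 of scaffold NW_018599289.1, plus strand) had 25, 17 and 24 counts in stressed replicates and 0 in all control replicates, with a log2 fold change of 8.13 (SE 1.33, edgeR adjusted p = 0.329). Locus 68 (NC_035094.1, 43812635 to 43812699, minus strand) had 81, 12 and 39 counts in stressed replicates and 0 in all control replicates, with a log2 fold change of 9.02 (SE 1.63, edgeR adjusted p = 0.329). Fitted fold changes against a group at 0 depend on the prior count and are no bounds, since a 0 is a location not predicted. Another row, from 16106 to 16163 on scaffold NW_018551612.1 (locus 66), had 36, 22 and 14 counts in stressed mucus and 0 in control mucus, but the other row of that locus had 30 counts in control replicate 2. Thus 3 of the 372 rows were counted in every stressed and no control library, as were 0.671% of all 596 rows, and none in every control and no stressed library.

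For locus 10 the log2 fold change was 4.05 (SE 3.16, edgeR adjusted p = 0.772), with every stressed count above every control count. As shares of all counts the groups overlapped, at 0.0239, 0.0797 and 0.366% in stressed mucus and 0.0798, 0 and 0% in control mucus. Without control replicate 1, the single control library that held it, all its controls were at 0 and locus 10 passed the threshold (edgeR adjusted p = 0.0349). There the row passed the filter on low counts through the stressed group alone, so this p-value is conditioned on it. The log2 fold change of locus 10 was 2.61 to 15.7 with a library left out and 12.57 with the replicate block. For locus 41, counted in all 6 fish, the log2 fold change was 0.63 (SE 1.37, edgeR adjusted p = 0.991), and it turned to -1.08 without stressed replicate 1.

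DESeq2 was run on all rows without the edgeR filter on low counts, and its own default filter on mean counts was left on. It passed 8 of the 372 rows (2.15%), where 2.52% of all 596 rows passed. Of the 8, 4 were higher in stressed mucus (1.01% of all rows were) and 4 lower (1.51% of all rows were). It set no adjusted p for 316 of the 372, and such rows could not pass. How many of all 596 rows had none was not counted, so these shares do not compare rows that could pass. Among the called rows, 5 were counted in 1 library, 2 in 2 libraries and 1 in 3 libraries, and only 1, locus 68 (adjusted p = 0.0809), had passed the filter on low counts.

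Locus 7, in 2 of 3 stressed and no control libraries, had the lowest adjusted p by DESeq2 (3.73e-14). The other rows called higher had 50 counts (locus 84, NC_035078.1, 25630487 to 25630534, minus strand, adjusted p = 1.23e-06) and 59 counts (locus 51, NC_035083.1, 7009417 to 7009490, plus strand, adjusted p = 1.02e-06 by DESeq2), each in stressed replicate 2 alone. The other row of locus 84 had 51 counts in stressed replicate 1. A longer row at locus 84, from 25630468 to 25630550, had 42 counts in plasma of control replicate 1. By place, locus 51 was in both groups, as a row with the same start and an end at 7009485 had 123 counts in control replicate 3 alone. A row with the same start and an end at 7009487 had 135 counts in mucus of stressed replicate 3 and 39 in mucus of control replicate 2. That row was also counted in water, and in plasma at 39 in stressed replicate 2 and at 38 and 90 in control replicates 1 and 3.

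Of the rows called lower by DESeq2, 1 was locus 62 (NC_035101.1, 13572153 to 13572243, minus strand), with 90 counts in control replicate 3 alone (adjusted p = 3.94e-07). Another was a row of locus 21 (NC_035092.1, 51254681 to 51254742, plus strand), with 62 counts in control replicate 3 alone (adjusted p = 6.41e-07). The row of locus 21 that ends 1 base earlier had 0, 57 and 0 counts in stressed replicates and 0, 816 and 0 counts in control replicates and was not called. The remaining 2 were overlapping rows of locus 29 on NC_035097.1 (plus strand). The row from 4654529 to 4654594 had 428 and 85 counts in control replicates 2 and 3 (adjusted p = 0.0991) and the row from 4654575 to 4654638 had 85 counts in control replicate 3 alone (adjusted p = 8.55e-07). The lower p thus went to the row with fewer counts.

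In water, 165 of 548 rows passed the filter and 1 of the 23 rows was among them, the row of locus 22 from 193413 to 193472. With the tank as a block its log2 fold change in stressed over control water was -4.50 (SE 3.54, edgeR adjusted p = 0.520), and it did not pass, where 1.82% of all rows tested passed. As a share of all counts, locus 22 made up 0, 0.147 and 0.133% in stressed water and 0.699, 0.871 and 0.962% in control water. Every stressed library was thus below every control library, while the libraries also differed in depth. How many of all 548 rows separate in this way was not counted, so the separation is not read as an effect of treatment. The unadjusted p of the tested row was 0.293 by the edgeR quasi-likelihood test, where 28 of the 165 rows tested had one under 0.05. The log2 fold change was -2.90 to -9.27 with a library left out and -3.39 without the block. DESeq2 passed 1 of the 23 (4.35%), where 5.11% of all 548 rows passed (2.37% higher and 2.74% lower in stressed water). It set no adjusted p for 9 of the 23, which could not pass, and how many of all 548 rows had none was not counted. The row that passed was the other row of locus 22, from 193452 to 193514 (adjusted p = 5.81e-05 by DESeq2). This row had 0 in all stressed water and 4865, 5638 and 0 counts in control water. The overlapping row of the same locus had 5071 and 7206 counts in stressed replicates 2 and 3. A row with the same start, 193452, and an end at 193518 had 5071 counts in stressed replicate 2. Another with that start and an end at 193519 had 7206 counts in stressed replicate 3 and 4281 in control replicate 3.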

How the data were processed

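Per the methods and the submitters' notes, the authors trimmed reads with cutadapt 2.10, aligned them to Omyk_1.0 with bowtie 1.1.1 and counted known (Atlantic salmon) and predicted miRNAs with miRDeep2, library by library. The deposited table holds estimated counts without normalization, all whole numbers, so rounding changed none. The deposited result tables hold the authors' fold changes, p-values and scores and were not used. Base numbering of the coordinates is not stated in the sources used here, and no sequence or gene annotation of that assembly was used.

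Members and lists were chosen with earlier results of these data known. Named loci were the 10 of largest mean mucus share, those in 4 or more mucus libraries, rows past the threshold (at most 10 per sample type), the 5 of largest mean water share and the 1 with most places. Loci 15, 18, 20, 55, 60 and 79 and the overlapping rows outside this rule were added after their values were seen.

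Each sample type was scaled by TMM, filtered with filterByExpr by treatment, scaled again and tested over the whole table (edgeR 4.0.16, limma 3.58.1, DESeq2 1.42.0, R 4.3.3), with the tank as block for water only. The SE given with an edgeR fold change is the absolute log2 fold change divided by the square root of the quasi-likelihood F statistic. Scripts were tested on simulated data. Same-numbered stressed and control libraries deviated together in water (r = 0.175, 0.181 and 0.0911) but not in mucus (r = -0.217, -0.129 and -0.209), and water pairs share a tank. Among pairs of mucus libraries and pairs of water libraries, at most 2.07% of rows had equal counts. Tables and figures used Python 3.11, pandas 2.3.3 and matplotlib 3.10.9.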

Additional observations from a re-analysis of the deposited data

How the results depend on the processing

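Counts of called rows of the 372 stayed at 0 in mucus under DESeq2 size factors, the library size of known miRNAs, no filter, the study's edgeR test, merged loci and the replicate block (0 called), but were 8 by DESeq2 and 0 to 1 with each library left out. In water they were 1 by DESeq2, 1 with merged loci (the unit of locus 51, 12 rows joined by overlap or identical counts, mostly outside the 372) and 0 under no replicate block, the other alternatives and each library left out. Over the whole table, 1 mucus row was called, against 15 by DESeq2 and 2 by the study's edgeR test. The number was 0 without a filter, 0 with the block and 0 to 3 with a library left out. For water it was 3, against 28 by DESeq2, 15 by the study's edgeR test, 14 without the block and 6 merged. It was 0 in water without a filter or with any library left out. The study joined the calls of edgeR and DESeq2, so its edgeR test alone does not stand for its totals. The other scalings moved the median log2 fold change of all mucus rows from 0.09 to -0.24 and -0.27, and changed no call and no sign of a fold change given here.

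The number of merged loci was 335 where identical counts joined rows only if counted in 2 or more libraries and 339 by overlap alone, but 174 to 204 under the other joining rules, 195 also joining by 1 shared count of at least 100 (chosen after seeing the data). It was 147 without control replicate 2 and 166 without stressed replicate 1. The mean share of mucus counts was 87.8% of the counts of predicted rows in control libraries, and 5.82% in stressed and 4.19% in control libraries without the 6 largest rows. With a library left out it was 46.0 to 91.6% in stressed and 31.9 to 63.9% in control libraries. The share of rows in 1 mucus library was 74.7% for merged loci, 83.2% without control replicate 2 and 91.0% without stressed replicate 1, the 2 libraries left out for it. The log2 fold change of the row of locus 1 was -18.87 with the replicate block in mucus and -23.91 to 1.55 with a library left out, and that of locus 41 was -1.08 to 1.97 with a library left out. The cause was not tested. Depth limits most rows, since the median count above 0 was 26 and a 0 is a location not predicted.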
